A study of Mus musculus with 4 samples.

Results

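The 9 genes described here are the IL-6 family cytokines Il6, Il11 and Lif, the receptor genes Il6st, Il6ra, Lifr and Osmr, the transcription factor gene Stat3 and its feedback inhibitor Socs3. They were taken by name, and all 9 had transcripts among the 35905 genes of the files. The cells were of the mouse line LLC (Lewis lung carcinoma), grown as subcutaneous flank tumours for 4 weeks in C57BL/6 mice and then digested and sorted as TdTomato+ CD45-, that is, carrying the fluorescent tumour label and lacking the leukocyte surface antigen. Their poly-A RNA was sequenced in bulk. The 4 libraries came from 2 samples of PAD4-DN hosts (Mrp8Cre+, Padi4fl/fl) and 2 of WT hosts (Mrp8Cre-, Padi4fl/fl), so the hosts of both groups carried floxed Padi4 and only PAD4-DN hosts carried the Cre. The Mrp8 promoter drives the Cre mainly in neutrophils, so the deletion was made in host cells and not in the injected tumour cells. Host age is not given in the sources used here, and nothing there states that replicates came from separate animals or that tumours were not pooled, so the p-values speak of the variation among 4 libraries and no wider.

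Most cytokines of the IL-6 family signal through gp130, the shared receptor chain encoded by Il6st, with IL-31 the exception, which uses its own chain and the oncostatin M receptor. IL-6 and IL-11 bind a private receptor chain that then pairs gp130 with a second gp130, whereas LIF and oncostatin M bring gp130 together with the LIF receptor or the oncostatin M receptor. Janus kinases on the receptors phosphorylate STAT3, which enters the nucleus and switches on targets that include Socs3, whose product binds gp130 and shuts the signal down. In tumours the pathway is known for linking inflammation to cancer cell growth and survival. The comparison of hosts asked whether these genes differ in tumour cells when the host's neutrophils lack Padi4.

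The libraries held 20036322 and 24142484 estimated counts in PAD4-DN and 23414984 and 25327974 in WT. Padi4 itself had 6 and 0 counts in PAD4-DN and 0 and 2 in WT, which checks neither the deletion nor the labels. The keratins Krt8 and Krt18 were abundant in every library, while the lung epithelial markers Sftpc and Scgb1a1 had 0 counts in all 4 and Epcam and Cdh1 had at most 7. The fibroblast markers Col3a1 and Dcn were also abundant in all 4 libraries, Col3a1 at 156588 counts or more. Some other fibroblast markers were not. Col1a2 was at 467 and 3.94 CPM (counts per 1000000 on scaled library sizes) in PAD4-DN and at 0.879 and 404 CPM in WT. The libraries differed in a way that crossed the genotypes. PAD4-DN replicate 1 and WT replicate 2 both lay above the other libraries for 7 of 10 fibroblast markers. The 10 markers summed to 14712 and 8744 CPM in PAD4-DN and 9243 and 10889 CPM in WT. Most of each sum was Col3a1, at 11641 and 6564 CPM in PAD4-DN and 7405 and 8248 CPM in WT. Of 11 macrophage markers 10 were highest in PAD4-DN replicate 1, and the 11 summed to 106 and 19.9 CPM in PAD4-DN and 54.6 and 54.0 CPM in WT, and so were all 6 pan-leukocyte markers, at 21.5 and 3.35 CPM in PAD4-DN and 10.1 and 10.2 CPM in WT. The 11 neutrophil markers summed to 23.4 and 12.0 CPM in PAD4-DN and to 19.6 and 8.29 CPM in WT, and the defining marker Ly6g had 1 count in all libraries together.

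The sorted cells held a receptor set weighted to gp130, the oncostatin M receptor and the IL-6 receptor, with Lif as the leading ligand. By TPM (transcripts per 1000000, which allows for transcript length and so lets genes be compared), the order among receptors was Il6st at 51.6 ± 5.82, Osmr at 21.5 ± 2.15, Il6ra at 18.0 ± 2.00, Il11ra1 at 12.7 ± 3.72 and Lifr at 0.686 ± 0.749 (mean ± SD over the 4 libraries). Il6st stood clear above Osmr and Il11ra1 clear above Lifr. The range of Il6ra overlapped those of Osmr and Il11ra1, which did not overlap each other. The order of Osmr and Il6ra depended on the transcripts counted, since part of the Osmr TPM lay on retained-intron transcripts. Protein-coding transcripts alone were compared after the data were seen. On them Il6ra was at 20.7 and 18.4 TPM in PAD4-DN and 16.4 and 16.5 TPM in WT. Osmr was at 16.1 and 16.3 TPM in PAD4-DN and 13.1 and 14.7 TPM in WT, below Il6ra in 4 of 4 libraries. Il11ra1 fell to 5.82 ± 1.96 TPM (mean ± SD over the 4 libraries), below Osmr in 4 of 4 libraries. Among ligands the order was Lif at 17.5 ± 2.72, Clcf1 at 8.45 ± 1.57, Ctf1 at 6.59 ± 2.46, Il11 at 6.47 ± 1.03, Cntf at 2.23 ± 0.679 and Il6 at 1.73 ± 0.565 TPM. Lif was above every other ligand in each library. The ranges of Clcf1, Ctf1 and Il11 overlapped, Il11 stood clear above Cntf, and the ranges of Cntf and Il6 overlapped again. On protein-coding transcripts alone Lif was at 15.2 ± 4.10 TPM and still above every other ligand in each library. On them the mean of Il11, 6.47 ± 1.03 TPM, was above that of Ctf1, 5.79 ± 1.46 TPM. Stat3 and Socs3 were at levels like that of Il6st, with Stat3 between 56.9 and 71.5 TPM and Socs3 between 33.5 and 69.5 TPM.

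**Figure D1:**
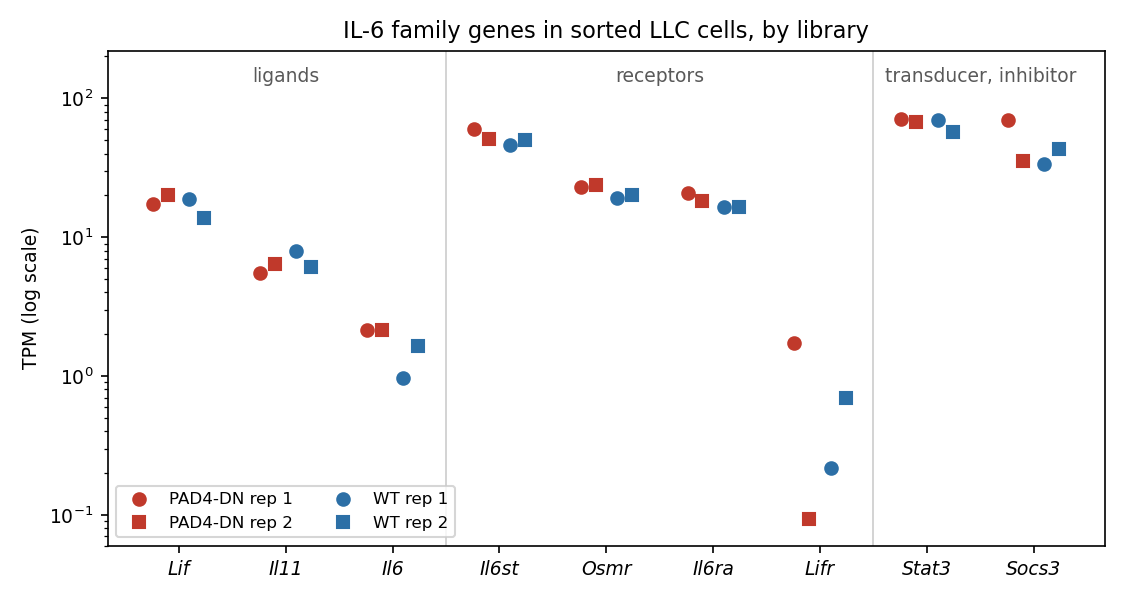
TPM of the 9 genes on a log axis, 1 point per library, with PAD4-DN libraries in red left of WT libraries in blue and circles and squares for replicates 1 and 2. Il6st, Osmr and Il6ra sit in narrow bands, whereas Lifr runs from 0.0936 to 1.74 TPM with the genotypes interleaved.

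The promoters of Il6 and Socs3 are shown because these genes stand at opposite ends of the pathway, the cytokine that starts it and the inhibitor that its STAT3 arm induces. The sequences are those of RefSeq on build GRCm38.p6, an earlier build than the GRCm39 of the expression files, and each runs from 250 bases before to 50 bases after the start site, 5′ to 3′ on the gene's strand. Il6 is on the plus strand at chr5:30012864-30013163 and Socs3 on the minus strand at chr11:117969317-117969616. Capitals mark matches on either strand to 4 motifs, AP-1 (TGANTCA), C/EBP (TTGCNNAA), NF-kB (GGANTTTCC) and STAT (TTCNNNGAA), and no matches overlap in these windows.
Il6: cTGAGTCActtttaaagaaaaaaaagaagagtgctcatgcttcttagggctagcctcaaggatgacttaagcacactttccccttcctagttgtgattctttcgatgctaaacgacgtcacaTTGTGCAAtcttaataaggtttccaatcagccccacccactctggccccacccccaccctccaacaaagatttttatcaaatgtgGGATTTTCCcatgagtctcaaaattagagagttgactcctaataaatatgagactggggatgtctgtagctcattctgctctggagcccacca
Socs3: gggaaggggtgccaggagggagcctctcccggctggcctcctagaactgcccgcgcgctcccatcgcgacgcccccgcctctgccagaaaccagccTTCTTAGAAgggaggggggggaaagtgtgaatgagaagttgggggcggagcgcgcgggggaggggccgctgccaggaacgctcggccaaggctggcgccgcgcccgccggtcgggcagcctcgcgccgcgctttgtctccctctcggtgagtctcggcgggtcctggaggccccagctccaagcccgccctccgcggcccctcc
In the Il6 window the capitals are, in order, an AP-1 match from base -249 to -243 relative to the start site, a C/EBP match from -128 to -121 and an NF-kB match from -43 to -35. The Socs3 window held a single match, to the STAT motif, from -154 to -146. Promoters matched for 9 of 9 members, as 11 windows, of which 4 held the AP-1 motif (Il6, Il11, Lif and Osmr) and 1 each the other motifs. Over all 32851 windows of 300 bases in the RefSeq table, 7.81% held AP-1, 10.8% C/EBP, 1.25% NF-kB and 8.30% STAT. A match describes letters only, and binding was not measured.

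No member was called different between PAD4-DN and WT, with 2 libraries in each group. With edgeR's quasi-likelihood test, 0 of 9 members passed at an adjusted p of 0.05 and 0 of 13718 tested genes did (0%), with a smallest adjusted p of 0.988. At an unadjusted p under 0.05 there were 0 members and 364 genes (2.65%). DESeq2 on the same genes called 11 (0.0802%) and limma-voom 0, and neither called a member. All 9 members passed the low-count filter. The CPM of both PAD4-DN libraries lay above that of both WT libraries for 2 members, Il6ra and Osmr, as for 15.4% of tested genes, and below it for 0 members, against 17.4% of tested genes, together 32.8%. In TPM both PAD4-DN libraries lay above both WT libraries for 4 members (Il6, Il6st, Il6ra and Osmr), against 22.9% of tested genes. For a single gene, exact two-sided permutation over 4 libraries has 0.33 as its smallest possible p.

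Lif encodes leukaemia inhibitory factor, a cytokine that keeps mouse embryonic stem cells undifferentiated and that many carcinomas secrete. It was at 34.2 and 54.1 CPM in PAD4-DN and at 49.1 and 30.3 CPM in WT. Each genotype had a high and a low library, and the groups overlapped. The log2 fold change, PAD4-DN minus WT, was 0.15 (SE 0.31, 95% interval -0.62 to 0.93, edgeR adjusted p = 0.990). It was -0.21 without PAD4-DN replicate 2 and -0.15 without WT replicate 2.

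Most Lif reads were assigned to the transcript Lif-202, with 415 and 1196 estimated counts in PAD4-DN and 1050 and 648 in WT. A further coding transcript, Lif-201, had 274 and 94.0 estimated counts in PAD4-DN and 61.7 and 109 in WT. PAD4-DN replicate 1 thus gave 39.1% of its Lif counts to Lif-201, against 7.28% in PAD4-DN replicate 2 and 5.52% and 14.2% in WT. The short non-coding transcript Lif-203 had 11 and 0 estimated counts in PAD4-DN and 6.21 and 9 in WT. It held 25.7% of the Lif TPM in PAD4-DN replicate 1 and 10.6% and 21.1% in WT. The division between transcripts is an estimate by kallisto and was not tested.

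Il11 encodes interleukin 11, which acts on stromal and epithelial cells and is induced by TGF-beta. It was at 6.59 and 7.63 CPM in PAD4-DN and at 10.4 and 7.14 CPM in WT. WT replicate 1 was the highest library and the other 3 lay close together. The log2 fold change was -0.30 (SE 0.28, 95% interval -0.99 to 0.39), and it was -0.00164 without WT replicate 1.

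Il6 encodes the founding cytokine of the family, a driver of the acute phase response. It was scarce in these cells, with 36 and 34 counts in PAD4-DN and 11 and 37 in WT. The exact Poisson 95% interval was 5.49 to 19.7 counts for WT replicate 1 and began at 23.5 counts or more in the other 3 libraries. That made 1.76 and 1.43 CPM in PAD4-DN and 0.484 and 1.47 CPM in WT, so WT replicate 1 was low and the groups overlapped. In TPM, which weights the estimated transcripts by length, the values were 2.16 and 2.15 in PAD4-DN and 0.961 and 1.64 in WT, without overlap. Both PAD4-DN libraries lay above both WT libraries on that scale for 22.9% of all tested genes. That scale rests on how the few reads were divided among transcripts, with Il6-201 taking 18.4 and 17.8 estimated counts in PAD4-DN and 0 and 11.8 in WT. In edgeR the log2 fold change of Il6 was 0.70 (SE 0.63, 95% interval -0.87 to 2.26, edgeR adjusted p = 0.988). Leaving out WT replicate 1 gave 0.12 and leaving out WT replicate 2 gave 1.71.

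By the distance between profiles of log2 CPM centred on each gene's mean over the 4 libraries, the abundant coding genes nearest to Il6 were Dclk1 (0.19), Tgfbi (0.49) and Rsrp1 (0.51). Dclk1, a microtubule-associated kinase, was at 10.8 and 8.80 CPM in PAD4-DN and 3.74 and 10.4 CPM in WT, low in the same library as Il6. These neighbours describe 4 libraries only.

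Il6st was the most abundant receptor gene and among the steadiest. It was at 254 and 237 CPM in PAD4-DN and at 213 and 238 CPM in WT. PAD4-DN replicate 1 was highest, WT replicate 1 lowest, and the other libraries were nearly equal, so the groups overlapped. Between genotypes the log2 fold change was 0.12 (SE 0.13), and its 95% interval corresponded to folds of 0.862 to 1.38. In TPM the values were 59.8 and 50.8 in PAD4-DN and 46.1 and 49.7 in WT. Both PAD4-DN libraries were thus above both WT libraries in TPM, as for 22.9% of all tested genes. The transcripts Il6st-203 and Il6st-201 together took nearly all counts, Il6st-203 taking 58.2% and 63.6% in PAD4-DN and 56.8% and 63.4% in WT.

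Il6ra encodes the private chain for IL-6, which can also be shed from the membrane by the proteases ADAM10 and ADAM17. It was at 75.4 and 70.6 CPM in PAD4-DN and at 65.8 and 64.3 CPM in WT. Both PAD4-DN libraries lay above both WT libraries, and the replicates of each genotype were close. Il6ra had a log2 fold change of 0.17 (SE 0.11, adjusted p = 0.988 by edgeR), with an interval of 0.923 to 1.37 as folds, and it lay between 0.12 and 0.22 with each library left out in turn. The ratio of Il6st to Il6ra TPM was 2.89 and 2.77 in PAD4-DN and 2.81 and 3.01 in WT.

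Osmr encodes the chain that joins gp130 to form the oncostatin M receptor. It was at 65.0 and 65.9 CPM in PAD4-DN and at 56.2 and 61.2 CPM in WT, again without overlap. Its log2 fold change was 0.16 (SE 0.12, adjusted p = 0.988 by edgeR), with an interval of 0.910 to 1.37 as folds. Of its transcripts Osmr-201 held 87.6% and 89.6% of counts in PAD4-DN and 93.4% and 92.7% in WT. The shorter coding transcript Osmr-204, singled out after its values were seen, was assigned 47.1 and 37.5 estimated counts in PAD4-DN and 0 in both WT libraries, with no test.

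Lifr encodes the chain that LIF needs to signal together with gp130, and it was nearly absent beside its ligand and partner. It had 68 and 7 counts in PAD4-DN and 10 and 45 in WT, or 3.32 and 0.293 CPM in PAD4-DN and 0.440 and 1.78 CPM in WT. The library order was PAD4-DN replicate 1, then WT replicate 2, then the remaining libraries, so the variation ran across the genotypes, as it did for 19.1% of tested genes. For Lifr the log2 fold change was 0.68 (SE 1.16, 95% interval -2.23 to 3.59). It was -1.91 without PAD4-DN replicate 1 and 2.02 without WT replicate 2. Il6st exceeded Lifr in TPM by 34.3 and 543 times in PAD4-DN and by 212 and 72.0 times in WT. In PAD4-DN replicate 1, 38.0% of the Lifr TPM came from 1 count on the short non-coding transcript Lifr-205, and on protein-coding transcripts alone the ratio was 90.6 and 680 in PAD4-DN and 212 and 92.3 in WT.

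Of the 10 fibroblast markers 7 were, like Lifr, higher in PAD4-DN replicate 1 and WT replicate 2 than in the other libraries, with Col1a1 at 652 and 16.9 CPM in PAD4-DN and 16.0 and 531 CPM in WT. Dcn, Lum and Dpt were not, and Lum was at 343 and 681 CPM in PAD4-DN and 425 and 442 CPM in WT. Their part in the Lifr values was not tested, and in bulk RNA fewer cells of a type and less RNA per cell cannot be told apart. Among the coding genes nearest to Lifr in profile were Islr (distance 0.47), an immunoglobulin superfamily gene, at 13.9 and 0.964 CPM in PAD4-DN and 2.11 and 6.66 CPM in WT, and Nr4a1 (0.49), an early response gene for a nuclear receptor, at 31.1 and 4.53 CPM in PAD4-DN and 3.96 and 15.9 CPM in WT.

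**Figure D2:**
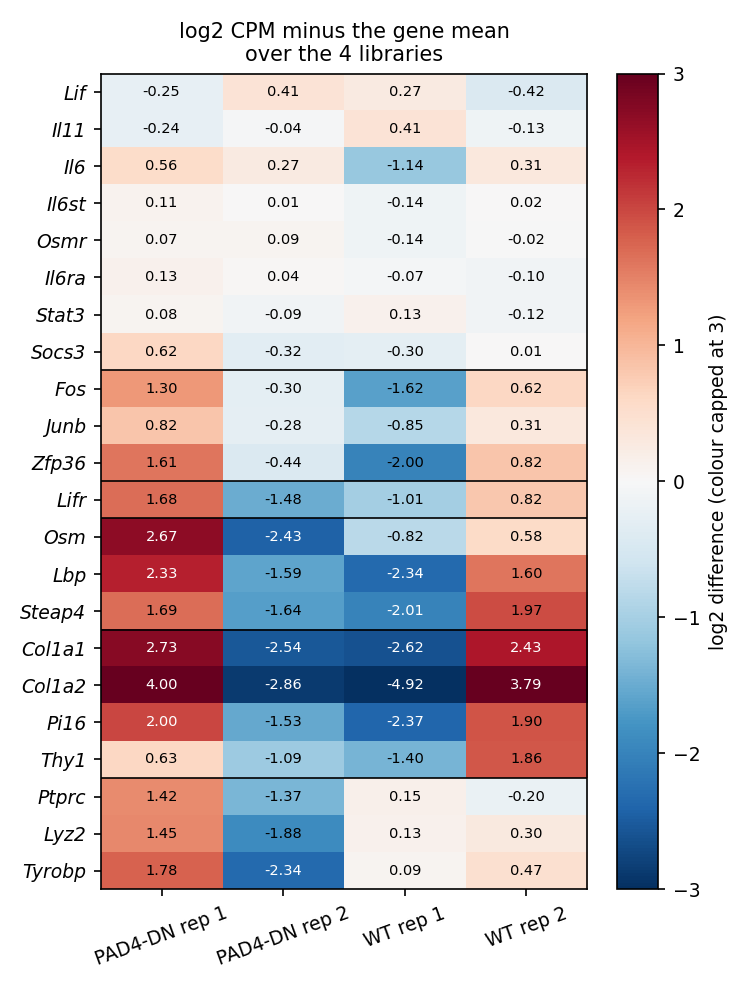
Centred log2 CPM in each library (columns, PAD4-DN left of WT), with the value in each cell. Rows are 8 members, then 3 early response genes, Lifr, the low genes Osm, Lbp and Steap4, 4 fibroblast markers and 3 leukocyte markers. Rows other than the members are a selection. The fibroblast markers Dcn, Lum and Dpt, which did not share the Lifr pattern, are not shown. Lifr and Col1a1 are above their means in PAD4-DN replicate 1 and WT replicate 2 and below them in the others, whereas Il6st, Osmr, Il6ra and Stat3 stay within 0.15 of their means.

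Stat3, the transducer, was at 180 and 159 CPM in PAD4-DN and at 185 and 156 CPM in WT. Replicates within a genotype differed more than the genotypes did. Stat3 had a log2 fold change of -0.01 (SE 0.15), with an interval of 0.768 to 1.28 as folds. Its sign turned in several alternatives, for example 0.13 on log2(TPM + 1), 0.08 without PAD4-DN replicate 2 and 0.12 without WT replicate 1. The transcript Stat3-203 carried 87.4% and 84.8% of counts in PAD4-DN and 87.5% and 87.7% in WT.

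Socs3, the feedback inhibitor, varied most among the abundant members. It was at 113 and 58.6 CPM in PAD4-DN and at 59.4 and 73.8 CPM in WT. PAD4-DN replicate 1 was high, PAD4-DN replicate 2 was the lowest library, and the groups overlapped. The log2 fold change was 0.36 (SE 0.32, 95% interval -0.43 to 1.16, edgeR adjusted p = 0.988). It was -0.19 without PAD4-DN replicate 1 and 0.76 without PAD4-DN replicate 2.

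The AP-1 subunit genes Fos and Junb and the mRNA decay factor gene Zfp36 were, like Socs3, highest in PAD4-DN replicate 1 and next in WT replicate 2. They were picked after their values were seen and do not stand for early response genes as a group, and both of those libraries lay above the others for 19.1% of all tested genes. Fos was at 866 and 286 CPM in PAD4-DN and at 114 and 540 CPM in WT. Zfp36 was at 540 and 130 CPM in PAD4-DN and at 44.1 and 312 CPM in WT. These 3 genes are known to be induced during tissue digestion, and Fos and Junb are also in the list of known STAT3 targets. Genes of that list went both ways. Lbp and Steap4, both low, were also higher in PAD4-DN replicate 1 and WT replicate 2 than in the other libraries. Lbp was at 8.88 and 0.503 CPM in PAD4-DN and at 0.264 and 5.31 CPM in WT. Steap4 was at 3.32 and 0.252 CPM in PAD4-DN and at 0.176 and 4.05 CPM in WT. Cebpd was lowest in WT replicate 2, at 9.56 CPM, and Myc was highest in WT replicate 1. The part of these genes in the Socs3 values was not tested.

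**Figure D3:**
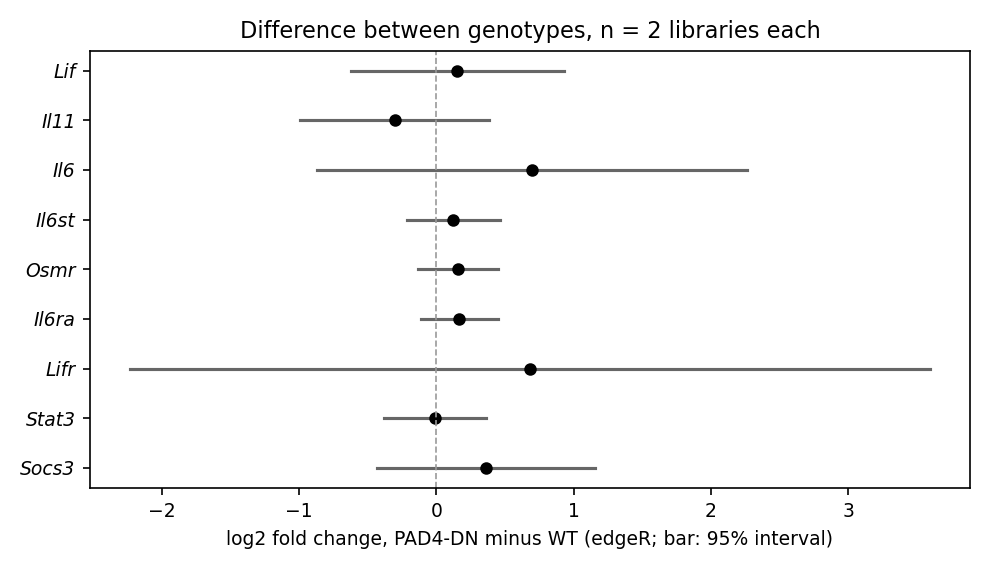
Log2 fold change of each member, PAD4-DN minus WT, from edgeR with 2 libraries per genotype, points for the estimate and bars for the 95% interval. Every bar crosses 0, and the bars of Il6st, Osmr, Il6ra and Stat3 are the narrowest, while that of Lifr runs from -2.23 to 3.59.

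The remaining genes of the pathway were read from the same fit, and 0 of 64 tested genes in 6 lists passed by edgeR, DESeq2 or limma-voom, with 1 at an unadjusted edgeR p under 0.05. The CPM of the groups did not overlap for 16 of the 64 (25%), against 32.8% of all tested genes. The median log2 fold change over all 13718 tested genes was 0.01, with 7062 genes positive and 6656 negative.

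Of the other 9 ligand genes 5 were abundant enough to test, with a median log2 fold change of 0.35, and all 5 were positive, although Osm was at -0.28 by limma-voom and Cntf at -0.0214 without WT replicate 1. The median was 0.15 by limma-voom and without PAD4-DN replicate 2, and 0.19 without WT replicate 1. Osm, the ligand of the oncostatin M receptor and a product of macrophages and neutrophils, had 89 and 1 counts in PAD4-DN and 7 and 24 in WT. A single library, PAD4-DN replicate 1, thus held most of its reads, the same library in which macrophage and pan-leukocyte markers were highest, and the part of those cells was not tested. The Osm log2 fold change was 1.77 (SE 1.57), and -3.76 without PAD4-DN replicate 1. Ctf2, a cardiotrophin gene, was at 1.27 and 1.38 CPM in PAD4-DN and at 1.10 and 0.833 CPM in WT, and Cntf, ciliary neurotrophic factor, at 1.32 and 1.72 CPM in PAD4-DN and at 0.835 and 1.55 CPM in WT. Il27 and Ebi3 had at most 4 counts in any library, and Il31 had 0 in all 4, where 0 allows up to 3 counts per library, or 0.119 to 0.146 CPM, for counting error only.

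The receptor and shedding list had 4 tested genes of 7 and a median of 0.08 (-0.12 without PAD4-DN replicate 2), with 3 positive. Il11ra1, the private chain for IL-11, was at 10.8 and 6.83 CPM in PAD4-DN and at 5.93 and 10.2 CPM in WT, a value made uncertain by its near-identical copy Il11ra2, which had 0 counts in every library. Adam10 was at 271 and 352 CPM in PAD4-DN and 304 and 292 CPM in WT, and Adam17 at 245 and 314 CPM in PAD4-DN and 270 and 257 CPM in WT. Both were lowest and highest in the PAD4-DN libraries, so the groups overlapped, and without PAD4-DN replicate 2 their log2 fold changes were -0.13 and -0.10. The ciliary neurotrophic factor receptor Cntfr had at most 4 counts, and Il27ra at most 12.

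Kinases and other STATs had a median of -0.15, with 8 of 9 negative, and leaving out either WT library brought the median to -0.06 (replicate 1) or -0.05 (replicate 2). Jak1, the main kinase of gp130, was at 395 and 464 CPM in PAD4-DN and at 435 and 375 CPM in WT, well above Jak2, Jak3 and Tyk2 in TPM as well as in CPM. Stat2, which acts in interferon signalling, had the most negative value of the list, -0.81 (SE 0.45). It was at 22.9 and 19.3 CPM in PAD4-DN and at 20.1 and 54.1 CPM in WT. WT replicate 2 was the high library, and without it the log2 fold change was 0.07. Tyk2 was at 20.5 and 19.3 CPM in PAD4-DN and at 20.7 and 24.7 CPM in WT.

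The inhibitor and adaptor list had 14 tested genes with a median of 0.04, 8 positive and 6 negative, and the median's sign turned on log2(TPM + 1) (-0.00319) and without either PAD4-DN library (-0.0284 and -0.0137). Socs3 exceeded its relative Socs1 in TPM by 52.6 and 29.3 times in PAD4-DN and by 30.5 and 26.2 times in WT. Socs4 was at 37.9 and 49.4 CPM in PAD4-DN and at 34.7 and 36.4 CPM in WT, the phosphatase gene Ptpn6 at 7.47 and 6.50 CPM in PAD4-DN and at 9.50 and 8.21 CPM in WT, and the phosphatase gene Ptpn1 at 45.6 and 55.5 CPM in PAD4-DN and at 62.2 and 52.5 CPM in WT.

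Genes known as STAT3 targets had a median of 0.03 over 23 tested members, 12 positive and 11 negative. Hp, which encodes the acute phase protein haptoglobin and is also expressed by myeloid cells, had 7.76 and 0.713 CPM in PAD4-DN and 0.440 and 0.833 CPM in WT, with PAD4-DN replicate 1 alone being high, and its log2 fold change of 2.71 (SE 1.12) was 0.16 without that library. Lcn2, the iron-sequestering lipocalin, was at 2.05 and 3.14 CPM in PAD4-DN and at 1.54 and 0.912 CPM in WT, and the survival gene Mcl1 at 153 and 149 CPM in PAD4-DN and at 126 and 133 CPM in WT. Both of these were higher in each PAD4-DN library, while Bcl2l1, Ccnd1 and Il4ra were lower in each, and none of the 5 passed the test. Of the 23 tested genes, 2 thus lay above and 3 below without overlap, against 15.4% and 17.4% of all tested genes. On log2(TPM + 1) the list's median was 0.26, and it was -0.17 without PAD4-DN replicate 1.

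Regulators of Il6 mRNA, which bind its 3′ end to speed or delay its decay, had a median of 0.20 (0.07 without PAD4-DN replicate 1) with 8 of 9 positive. The decay factor Zfp36l1 was at 89.2 and 92.1 CPM in PAD4-DN and at 74.1 and 70.1 CPM in WT, a log2 fold change of 0.33 (SE 0.11) with unadjusted p = 0.0267 and adjusted p = 0.988 by edgeR. Rc3h1, which encodes roquin, was at 106 and 109 CPM in PAD4-DN and at 79.7 and 93.5 CPM in WT, and its relative Rc3h2 at 87.0 and 127 CPM in PAD4-DN and at 81.8 and 92.2 CPM in WT. Zfp36l1 and Rc3h1 were higher in PAD4-DN without overlap between genotypes, and Rc3h2 overlapped. Khsrp was lower in PAD4-DN without overlap, at 171 and 196 CPM against 198 and 205 CPM in WT. The groups did not overlap for 32.8% of all tested genes.

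**Figure D4:**
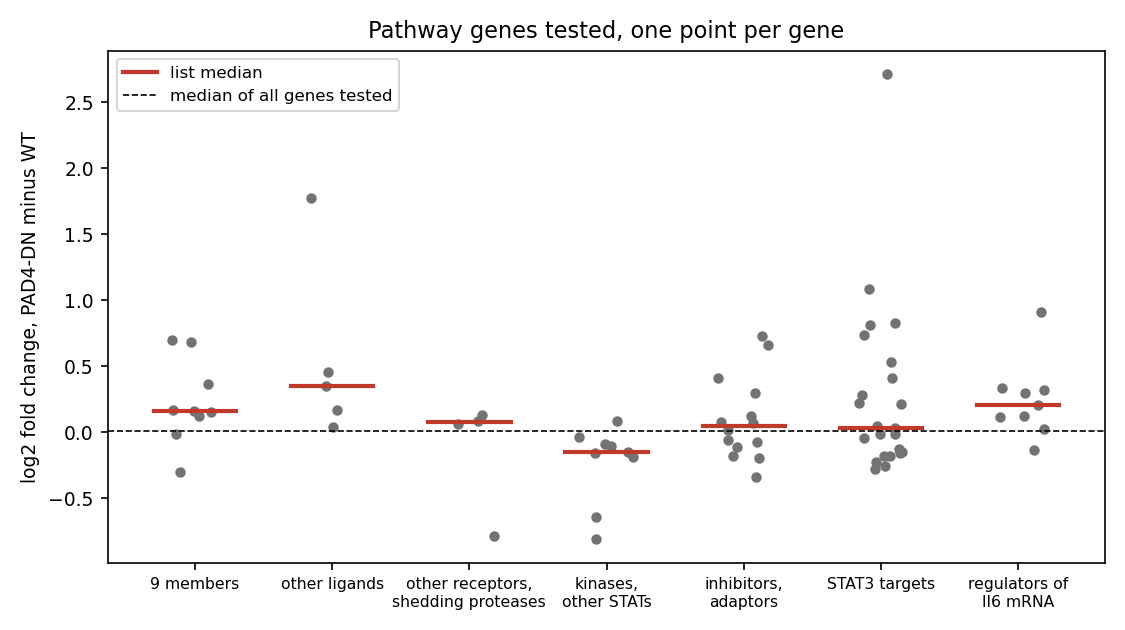
Log2 fold change, PAD4-DN minus WT, of every tested gene in the 9 members and 6 pathway lists, 1 point per gene, with the list median in red and the median of all tested genes dashed. The list medians lie between -0.15 and 0.35, and the points farthest from 0 are Hp at 2.71 and Osm at 1.77.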

How the data were processed

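RNA was measured in 2 PAD4-DN and 2 WT samples of sorted LLC cells. Per the labels' protocols, 100 ng of total RNA gave strand-specific poly-A libraries with 13 PCR cycles, read for 75 cycles from one end. The submitters' processing notes name kallisto and GRCm39, and the sources used here give no kallisto version or annotation release. The authors deposited, per sample, estimated counts that are not normalized and TPM values scaled for effective length, for 117486 transcripts.

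Transcripts were matched by identifier without version to GENCODE M21 (116408 matched, 1078 did not). Estimated counts and TPM were summed per gene, and counts were rounded. The edgeR 4.0.16 quasi-likelihood test (R 4.3.3, TMM, filterByExpr, no replicate block) was fitted to the whole table, with Benjamini-Hochberg adjustment over 13718 genes at 0.05. Standard errors come from the log2 fold change and its F statistic, and intervals from the t distribution with edgeR's degrees of freedom. Kallisto divides reads of similar transcripts by an estimate. Intervals and floors of counts cover counting error only, since PCR reads carry no molecular identifiers.

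Members and lists were chosen with earlier results of these data known. Named genes were all members, the 3 genes of smallest p in each list, and, for Il6 and Lifr, whose log2 CPM spanned at least 1, the 3 nearest coding genes of at least 5 mean CPM by Euclidean distance, and a few genes the rule named are not reported here. Alternatives were DESeq2 1.42.0, limma 3.58.1 (voom, and trend on log2(TPM + 1) and log2(TPM + 0.1) with mean TPM of at least 1), DESeq2 size factors, other low-count filters, a replicate block and each library left out. The test was tried on simulated data.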

Additional observations from a re-analysis of the deposited data

How the results depend on the processing

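No member or other pathway gene was called at an adjusted p of 0.05 in any fit that tested it. The fit with a minimum of 5 CPM tested 7 members and 49 other pathway genes, the TPM fits 8 and 59, the fit without a filter 9 and 70, and the others 9 and 64. Over all genes, DESeq2 on the same 13718 genes called 11, edgeR without a low-count filter 10, and edgeR with 1 library left out 0 to 2, the 2 coming without WT replicate 2. The limma, size factor, 5 CPM and replicate block fits called 0. A replicate block on the shared numbers left 309 genes at an unadjusted p under 0.05 against 364 without it. Deviations of same-numbered libraries from their group means correlated at -0.34 across genes, and a block with the numbers crossed, added after the data were seen, called 0 genes, with 412 at an unadjusted p under 0.05. A fit without 1 library assumes that the lone library of its group varies like the others.

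Directions turned in 17 of 300 fits of single genes. Stat3 was at 0.00906 with a minimum of 5 CPM and at 0.13 on both log2(TPM + 1) and log2(TPM + 0.1), Ptpn6 at 0.0123 and 0.0142 on the same scales, and Osm at -0.28 with limma-voom, and the cause was not tested. With 1 library left out, log2 fold changes ranged from -0.21 to 0.55 for Lif, -1.91 to 2.02 for Lifr, -0.13 to 0.12 for Stat3, -0.19 to 0.76 for Socs3, -3.76 to 2.80 for Osm, -0.0214 to 0.86 for Cntf, -0.10 to 0.26 for Adam17, -0.13 to 0.24 for Adam10 and -1.35 to 0.0708 for Stat2. List medians moved by more than the spread between replicates in 16 of 72 fits. With 2 libraries per group the median standard error over all tested genes was 0.20, and counts under 100 limit Il6, Lifr and Osm.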
